A study of Homo sapiens with 4 samples.

Results

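The genes described here encode the axon guidance ligands and receptors of the semaphorin, plexin, Slit-Robo and netrin systems, measured in endothelial cells made from human embryonic stem cells. They were picked by gene symbol, with earlier results of these data known. The symbols were semaphorins SEMA3 to SEMA7, plexins, ROBO1 to ROBO4, SLIT1 to SLIT3, netrins named NTN with a number, and UNC5A to UNC5D. This gave 44 of the 28285 gene rows, 27 ligand genes and 17 receptor genes. RNA sequencing had been done on 4 libraries of the H1 line, an established human embryonic stem cell line, in which enhanced green fluorescent protein (eGFP) was knocked into GATA2, a gene for a zinc-finger transcription factor of blood progenitors. All 4 libraries share this knock-in, written GATA2w/eGFP in the series' design text, and all 4 titles also name Cre without saying what it was used for. The GFP-positive fraction (2 libraries) was eGFP+CD34+CD31+CD43- and is given as hemogenic endothelium, from which blood cells arise, and the GFP-negative fraction (2 libraries) was eGFP-CD34+CD31+CD43- and is given as endothelial cells. The source names call all 4 hemogenic endothelium. Whether replicates came from separate cultures, and whether the knock-in line was 1 clone, is not given in the sources used here, so the spread behind every p-value is that between these libraries and may be technical.

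Guidance receptors turn an extracellular cue into local assembly or collapse of the actin cytoskeleton. Semaphorins bind plexins, the secreted class 3 semaphorins mostly together with a neuropilin co-receptor, and the plexin's intracellular part acts on small GTPases of the Ras and Rap families. SLIT proteins bind ROBO receptors, and netrins bind DCC, neogenin and UNC5 receptors. In blood vessels PLXND1, ROBO4 and UNC5B are the best known endothelial members: PLXND1 patterns sprouting vessels as the receptor of SEMA3E, ROBO4 stabilises the endothelial barrier, and UNC5B restrains sprouting and binds ROBO4.

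Levels are given as TPM, a gene's share of all transcripts after correction for transcript length, so they can be set side by side between genes. TPM keeps no depth, so read totals are unknown and no counting interval can be given. GATA2 itself was higher in the GFP-positive pair of libraries, with 302 TPM in replicate 1 and 385 TPM in replicate 2 against 80.2 TPM and 87.3 TPM, but it carries the reporter used for the sort. Of 9 endothelial markers, all were lower in both GFP-positive than in both GFP-negative libraries. Their summed level was 4041 and 4296 TPM in GFP-positive against 6939 and 6548 TPM in GFP-negative libraries, and CLDN5, a tight junction gene, was listed at 0 in 1 GFP-positive library. Of 8 blood markers, 5 were above in both GFP-positive libraries and 3 overlapped, with sums of 263 and 247 TPM against 61.2 and 69.0 TPM. Of 8 mesenchymal and smooth muscle markers, 3 were above and 5 overlapped, with sums of 1463 and 1563 TPM against 698 and 934 TPM. Of 5 epithelial markers, 4 were above and 1, CDH1, below, with sums of 1714 and 1472 TPM against 877 and 1059 TPM, mostly from KRT8, KRT18 and KRT19. Of 4 neural markers tested, 1 was above, 1 below and 2 overlapped, with list sums of 360 and 485 against 370 and 492 TPM, mostly from NES and TUBB3. Of 3 pluripotency markers tested, 1 was above, 1 below and 1 overlapped, with list sums of 569 and 462 against 395 and 386 TPM. LIN28A, which was above, and DPPA4, which overlapped, made nearly all of these sums. POU5F1 was below, at 0.93 and 0.03 against 9.68 and 5.88 TPM. Of 3 cardiac markers, 1 was above, 1 below and 1 overlapped, with sums of 17.4 and 9.71 against 25.4 and 17.05 TPM. Of all genes tested, 22.8% had both GFP-positive libraries above both GFP-negative libraries, and 21.5% had both below. The part of these markers in the guidance gene differences was not tested. In bulk RNA, fewer cells that express a gene and less of its RNA per cell cannot be told apart.

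Most guidance genes with a clear level were lower in the GFP-positive fraction, although none was called. Of the 44 genes, 22 had both GFP-positive libraries below both GFP-negative libraries, 4 had both above, and 18 overlapped, NTN3 among them with 0 in all 4. A level of at least 1 TPM in at least 2 libraries was needed for a test, and 36 of the 44 reached it. A gene that reached it only through the fraction where it was high had to differ, which applies to SEMA5B and SEMA6D. Of the 34 other tested guidance genes, 19 lay below, 4 above and 11 overlapped. Of all genes tested, 21.5% lay below in this way and 22.8% above, shares that keep genes which reached the filter through a single fraction. For the 20 guidance genes with a mean of at least 10 TPM over all 4 libraries, 14 lay below, 2 above and 4 overlapped, while among all 9955 genes of that level 20.9% lay below and 25.7% above.

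The fold changes were fitted with limma on log2(TPM + 1), a scale that understates the change of low genes. With Benjamini-Hochberg adjustment over all 15425 genes tested, 0 guidance genes passed 0.05, and 0.447% of all genes passed. The lowest adjusted p of a guidance gene was 0.102, for PLXND1. Of the 34 guidance genes tested other than SEMA5B and SEMA6D, 12 had an unadjusted p under 0.05, 2 higher and 10 lower in GFP-positive cells. The background was 14.1% of all genes tested (6.69% higher, 7.38% lower), with genes that reached the filter through a single fraction kept in. The median log2 fold change of these 34 was -0.44 (25 below 0, 9 above), beside 0.020 over all genes tested. With SEMA5B and SEMA6D included it was -0.49. The medians were -0.46 over 21 ligands, SEMA5B and SEMA6D among them, and -0.52 over 15 receptors. With a library left out, limma passed ROBO1 when that was GFP-positive replicate 1 (adjusted p = 0.0343) and PLXND1 when it was GFP-negative replicate 2 (adjusted p = 0.0480), and no guidance gene when either of the other libraries was left out.

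**Figure D1:**
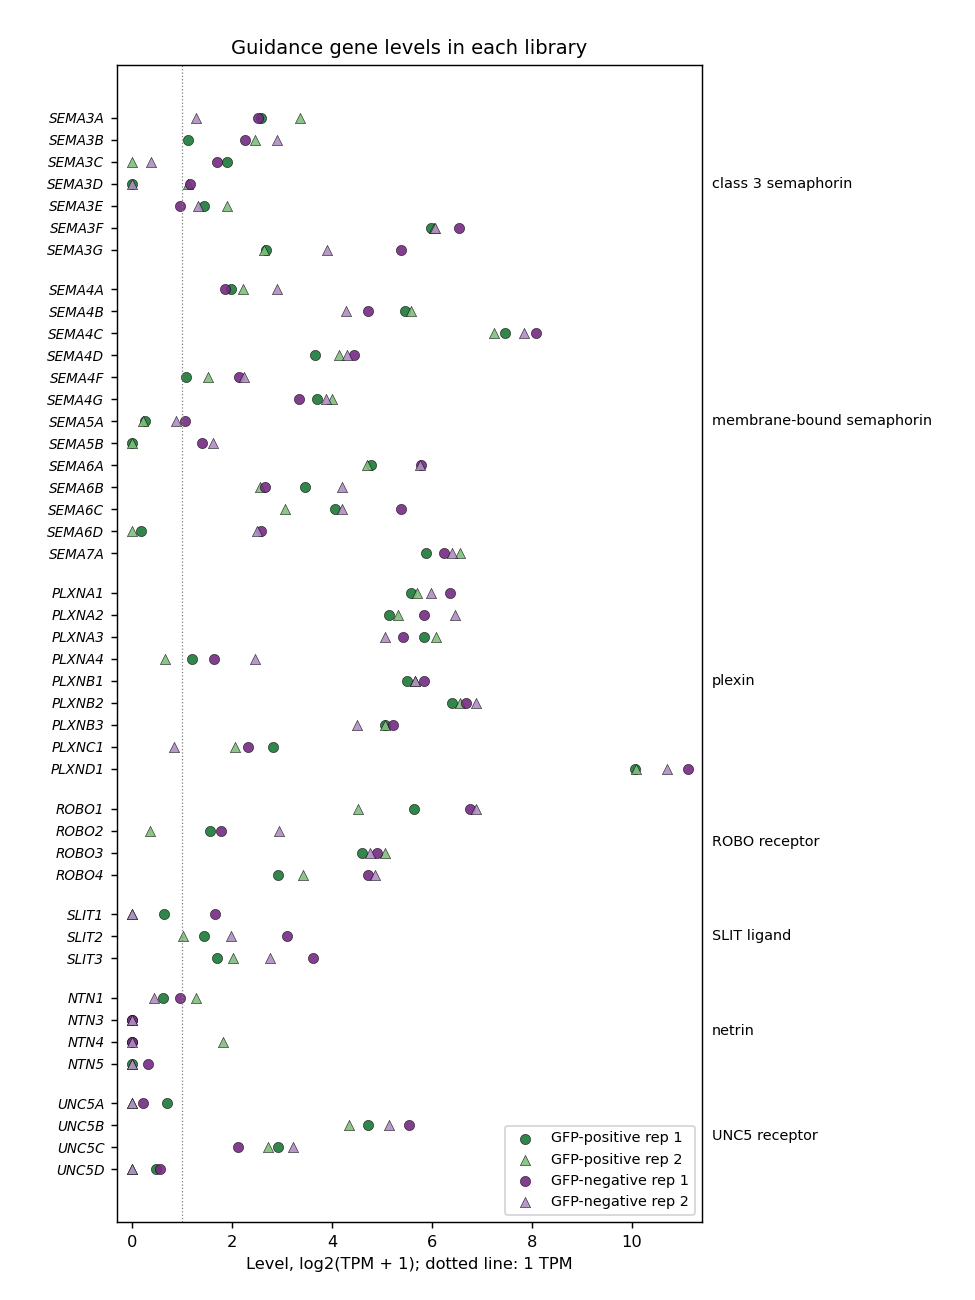
Level of each of the 44 guidance genes as log2(TPM + 1) on the x axis, grouped by family, with 1 point per library (green, GFP-positive; purple, GFP-negative; circles, replicate 1; triangles, replicate 2). PLXND1 lies far to the right of every other member in all 4 libraries, and netrins lie near 0.

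**Figure D2:**
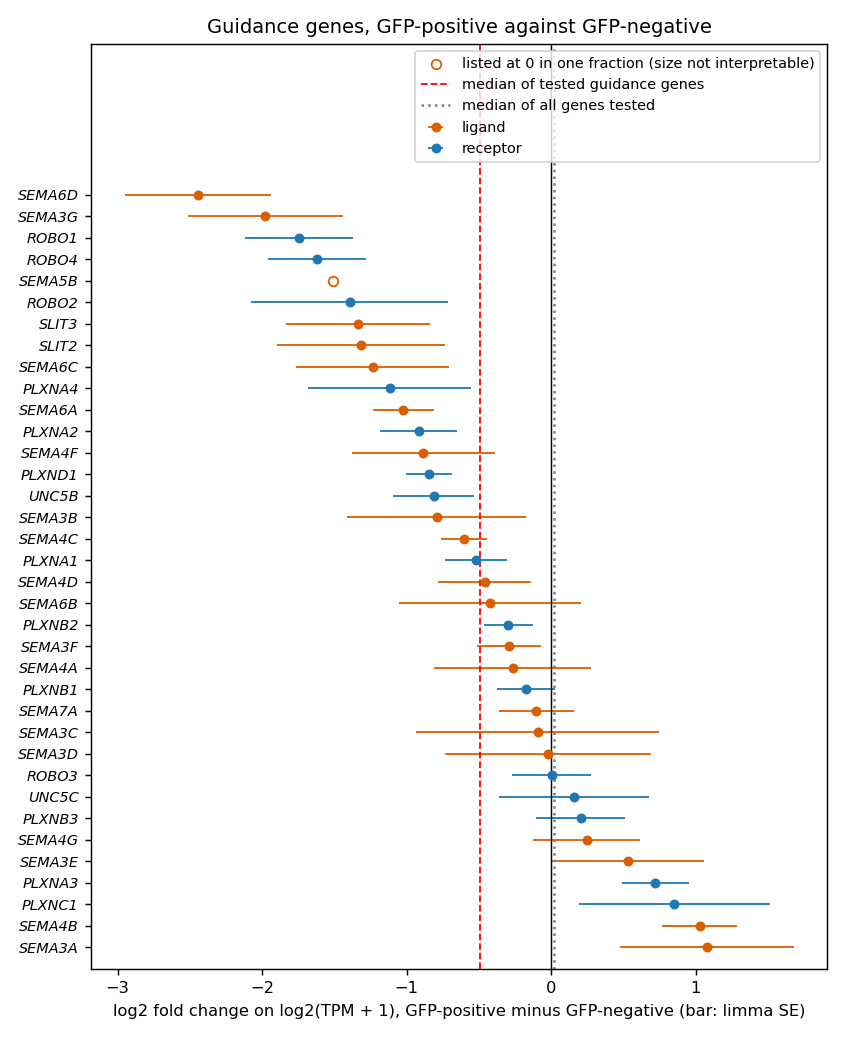
Fitted log2 fold change, GFP-positive minus GFP-negative, on log2(TPM + 1) for the 36 tested guidance genes, with bars of 1 limma standard error. The dashed red line is their median of -0.49 and the dotted grey line the median of all genes tested, 0.020. The open circle, SEMA5B, had 0 in each GFP-positive library, so its position depends on the pseudocount, as does that of SEMA6D, which was near 0 in both GFP-positive libraries.

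Among the secreted class 3 semaphorins, SEMA3F was the most abundant in all 4 libraries, and SEMA3G came next in the GFP-negative libraries. SEMA3G, a semaphorin known from arterial endothelium that binds neuropilin-2, had 5.37 and 5.21 TPM in the GFP-positive libraries, replicate 1 first, and 40.4 and 13.8 TPM in the GFP-negative ones. The GFP-positive libraries were nearly equal and below both others, which differed widely from each other. The fitted log2 fold change of -1.98 ± 0.54 (SE) had a limma adjusted p of 0.196, and leaving out a GFP-negative library moved it, to -1.24 without replicate 1 and to -2.72 without replicate 2. SEMA3F, a repellent that also acts through neuropilin-2, had 61.8 and 64.8 TPM against 92.25 and 65.4 TPM. Only GFP-negative replicate 1 stood clearly higher, and the log2 fold change was -0.29 ± 0.22 (SE; limma adjusted p = 0.629), or -0.047 without that library. SEMA3A to SEMA3E ranged from 0 to 9.33 TPM over all libraries. SEMA3E, the ligand of PLXND1 that does not need a neuropilin, was at 1.70 and 2.73 TPM against 0.94 and 1.49 TPM, far below its receptor. SEMA3A had 4.99 and 9.33 TPM against 4.71 and 1.43 TPM, above SEMA3G in GFP-positive replicate 2. The fitted difference of 1.08 ± 0.60 on the log2 scale (SE; limma adjusted p = 0.493) rested on single libraries, at 0.46 when GFP-negative replicate 2 was left out and 1.69 when GFP-negative replicate 1 was. SEMA3E and SEMA3A were named after their values were seen.

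Of the 12 membrane-bound semaphorins tested, 10 had fitted values below 0, SEMA5B and SEMA6D among them, and 2 above. By libraries, 7 lay below, 1 above and 4 overlapped. SEMA4C, a ligand of PLXNB2 and the most abundant semaphorin in all 4 libraries, had 176 and 151 TPM in GFP-positive against 269 and 229 TPM in GFP-negative libraries. All GFP-positive values lay below all GFP-negative values, at -0.61 ± 0.16 on the log2 scale (SE; limma adjusted p = 0.187). SEMA4B stood the other way, at 43.0 and 47.1 TPM against 25.4 and 18.3 TPM. Its mean was 2.06-fold higher in GFP-positive cells, without overlap (log2 fold change 1.03 ± 0.26, SE; limma adjusted p = 0.174). SEMA4D, the ligand of PLXNB1 known from lymphocytes and platelets, had 11.7 and 16.6 TPM against 20.6 and 18.6 TPM. The libraries did not overlap, but the gap was small beside the spread (log2 fold change -0.46 ± 0.32, SE; limma adjusted p = 0.596). It was -0.22 without GFP-positive replicate 1. SEMA4G had 12.05 and 14.9 TPM against 9.07 and 13.7 TPM, with overlap and a difference of 0.25 ± 0.37 on the log2 scale (SE; limma adjusted p = 0.844). Its gene body overlaps MRPL43, a mitochondrial ribosomal protein gene, on the other strand. SEMA7A, a semaphorin held by a GPI anchor that signals through PLXNC1 and beta-1 integrin, had 57.6 and 92.9 TPM against 74.2 and 83.25 TPM. Here the GFP-positive libraries enclosed both GFP-negative ones, and the log2 fold change was -0.10 ± 0.26 (SE; limma adjusted p = 0.918).

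Of the SEMA6 group, SEMA6D reached the level filter only through the GFP-negative libraries, so its sign was fixed. The fitted values of SEMA6A, SEMA6B and SEMA6C lay below 0, under both other scalings too, although that of SEMA6B turned positive without GFP-positive or GFP-negative replicate 2. SEMA6A, a ligand of PLXNA2 and PLXNA4, was the tightest of them, at 26.45 and 25.2 TPM in GFP-positive against 53.9 and 53.0 TPM in GFP-negative libraries. Replicates differed by little in either fraction, and the GFP-negative mean was 2.07-fold that of GFP-positive cells (log2 fold change -1.02 ± 0.21, SE; limma adjusted p = 0.114). SEMA6D had 0.14 and 0 TPM against 4.95 and 4.69 TPM. It was near 0 in both GFP-positive libraries and a few TPM in both others, and the fitted value of -2.45 ± 0.50 (SE; limma adjusted p = 0.114) depends on the pseudocount, being -4.99 with a pseudocount of 0.1. SEMA6C had 15.7 and 7.30 TPM against 40.6 and 17.5 TPM. Replicates differed more than 2-fold within each fraction, and its log2 fold change was -1.24 ± 0.53 (SE; limma adjusted p = 0.372), or -0.73 with GFP-positive replicate 2 left out and -0.65 with GFP-negative replicate 1 left out. SEMA6B overlapped, at 9.95 and 4.89 TPM against 5.31 and 17.4 TPM (-0.42 ± 0.63 on the log2 scale, SE; limma adjusted p = 0.842). SEMA5B had no signal listed for GFP-positive cells (0 TPM in each library) and 1.64 and 2.08 TPM in GFP-negative cells, so no fold is given (limma adjusted p = 0.293). SEMA5A stayed under the test's level filter, with 0.19 and 0.16 TPM against 1.08 and 0.85 TPM. SEMA4A and SEMA4F, the remaining members, ranged from 1.12 to 6.44 TPM.

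The plexins were dominated by PLXND1, which held 77.8% and 76.2% of all plexin TPM in GFP-positive cells and 85.4% and 81.6% in GFP-negative cells. PLXND1 (ENSG00000004399; GRCh38, chromosome 3, 129555175 to 129606818, minus strand) had 1069 and 1075 TPM in GFP-positive and 2227 and 1667 TPM in GFP-negative libraries. By level it ranked 80 and 84 of 28285 genes in GFP-positive cells and 30 and 49 in GFP-negative cells. All GFP-positive values lay below all GFP-negative values, and the GFP-negative mean was 1.82-fold that of GFP-positive cells (log2 fold change -0.85 ± 0.16, SE; limma adjusted p = 0.102). Without GFP-negative replicate 2 limma gave -1.05 with an adjusted p of 0.0480, and without GFP-negative replicate 1 -0.64 with 0.267.

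Of the 4 A-type plexins, co-receptors with neuropilins for class 3 semaphorins or direct receptors of SEMA6 proteins, PLXNA1, PLXNA2 and PLXNA4 lay lower and PLXNA3 higher in GFP-positive cells. PLXNA1 had 47.2 and 51.0 TPM against 81.0 and 61.7 TPM. PLXNA2 had 34.4 and 39.1 TPM against 56.5 and 87.3 TPM. For both, all GFP-positive values lay below all GFP-negative values, and the log2 differences were -0.52 ± 0.21 and -0.92 ± 0.26 (SE; limma adjusted p = 0.355 and 0.211). They moved to -0.33 for PLXNA1 without GFP-negative replicate 1 and to -0.61 for PLXNA2 without GFP-negative replicate 2. PLXNA3 had 56.4 and 66.6 TPM against 42.0 and 32.2 TPM, without overlap (log2 fold change 0.72 ± 0.23, SE; limma adjusted p = 0.254). It was thus the most abundant A-type plexin in the GFP-positive libraries and the least abundant of these 3 in the GFP-negative ones, an order that was not tested. PLXNA4, which was named after its values were seen, was low, at 1.29 and 0.59 TPM against 2.13 and 4.47 TPM, also without overlap. Its log2 difference was -1.12 ± 0.56 (SE; limma adjusted p = 0.444), or -0.71 with GFP-negative replicate 2 left out. The 3 B-type plexins, receptors of SEMA4 proteins, stood closer together. PLXNB2 had 83.9 and 93.7 TPM against 102 and 117 TPM, and PLXNB1 had 44.2 and 49.3 TPM against 56.3 and 49.7 TPM, both without overlap but with small gaps (log2 differences -0.30 ± 0.17 and -0.18 ± 0.20, SE; limma adjusted p = 0.505 and 0.772). With a library left out they ran from -0.40 to -0.20 and from -0.27 to -0.089. PLXNB3 overlapped, at 32.2 and 32.5 TPM against 36.35 and 21.5 TPM (limma adjusted p = 0.847). PLXNC1, the receptor of SEMA7A, was low at 0.80 to 6.04 TPM, with overlap.

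ROBO1 and ROBO4 were each about 3-fold lower in GFP-positive cells and ROBO3 was level. ROBO4 (ENSG00000154133; GRCh38, chromosome 11, 124883691 to 124898500, minus strand), the endothelial ROBO receptor, had 6.54 and 9.71 TPM in GFP-positive and 25.5 and 27.9 TPM in GFP-negative libraries. The gap between fractions exceeded the difference within either, and the GFP-negative mean was 3.28-fold that of GFP-positive cells (log2 fold change -1.62 ± 0.34, SE; limma adjusted p = 0.115). ROBO1 (ENSG00000169855; GRCh38, chromosome 3, 78597240 to 79767815, minus strand), a broadly expressed SLIT receptor, had 48.95 and 21.8 TPM against 107 and 118 TPM. GFP-positive replicate 2 was the lowest library, and the GFP-negative mean was 3.17-fold that of GFP-positive cells (log2 fold change -1.75 ± 0.37, SE; limma adjusted p = 0.122). The value was -2.31 without GFP-positive replicate 1, where it passed (adjusted p = 0.0343), and -1.18 without GFP-positive replicate 2. ROBO2, a neuronal SLIT receptor, was low, at 1.95 and 0.28 TPM against 2.42 and 6.64 TPM (-1.40 ± 0.68 on the log2 scale, SE; limma adjusted p = 0.425). With either replicate 2 library left out it was smaller, -0.79 (GFP-positive) and -0.82 (GFP-negative). ROBO3, a divergent family member known from axons that cross the midline, had 23.4 and 32.6 TPM against 28.98 and 26.2 TPM. The GFP-positive libraries enclosed the GFP-negative ones, at 0.0029 ± 0.27 on the log2 scale (SE; limma adjusted p = 0.998), a value whose sign turns under both other scalings (-0.038 and -0.020). ROBO1 was thus the most abundant ROBO gene in the GFP-negative libraries and in GFP-positive replicate 1, and ROBO3 in GFP-positive replicate 2.

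**Figure D3:**
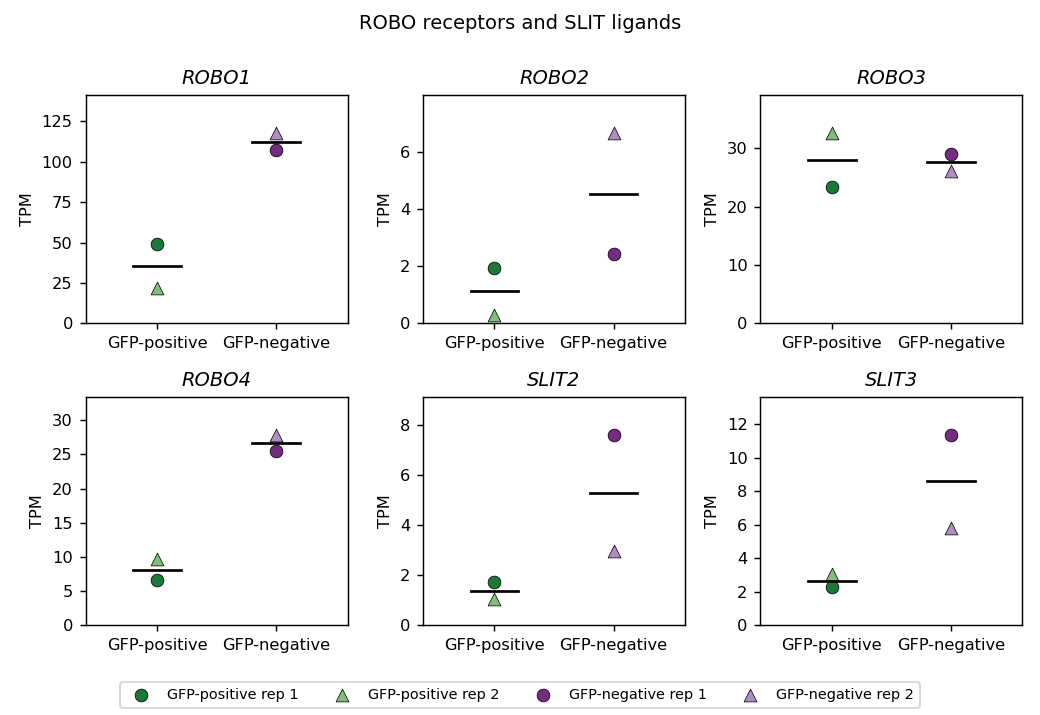
TPM on linear axes from 0 for 4 ROBO receptors and 2 SLIT ligands in each library, with a bar at the mean of each fraction (n = 2). The fractions are separated for ROBO1, ROBO2, ROBO4, SLIT2 and SLIT3, and the GFP-positive points of ROBO3 enclose the GFP-negative ones.

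ROBO3 and ROBO4 are neighbours, 2220 bases apart on chromosome 11 with their ends facing each other, so their starts lie at opposite sides of the pair. Their promoter windows are shown because these adjacent genes differed in pattern, with those of ROBO1 and PLXND1 beside them. Each is the 250 bases before the RefSeq start nearest the GENCODE gene's start (build GRCh38.p14), and capitals mark the letters of 4 searched motifs on either strand: AGATAA for GATA factors, CCGGAA for ETS factors, TGTGGT for RUNX factors and GGGCGG for SP1.
ROBO4 promoter, chr11:124897866-124898115, minus strand: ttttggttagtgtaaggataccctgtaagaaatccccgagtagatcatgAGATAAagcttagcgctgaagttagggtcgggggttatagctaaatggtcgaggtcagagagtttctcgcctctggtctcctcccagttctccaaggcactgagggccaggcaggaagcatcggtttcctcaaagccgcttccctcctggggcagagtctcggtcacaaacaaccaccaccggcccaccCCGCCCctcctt
ROBO3 promoter, chr11:124865182-124865431, plus strand: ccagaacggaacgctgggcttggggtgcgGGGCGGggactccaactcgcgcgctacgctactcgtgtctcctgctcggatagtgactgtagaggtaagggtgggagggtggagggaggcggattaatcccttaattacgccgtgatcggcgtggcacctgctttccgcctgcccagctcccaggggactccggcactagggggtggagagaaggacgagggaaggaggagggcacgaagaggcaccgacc
ROBO1 promoter, chr3:79767999-79768248, minus strand: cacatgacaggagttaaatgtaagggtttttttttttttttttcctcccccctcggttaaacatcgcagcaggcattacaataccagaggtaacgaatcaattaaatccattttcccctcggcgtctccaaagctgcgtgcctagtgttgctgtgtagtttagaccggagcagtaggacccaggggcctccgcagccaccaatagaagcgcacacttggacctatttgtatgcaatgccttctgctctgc
PLXND1 promoter, chr3:129606677-129606926, minus strand: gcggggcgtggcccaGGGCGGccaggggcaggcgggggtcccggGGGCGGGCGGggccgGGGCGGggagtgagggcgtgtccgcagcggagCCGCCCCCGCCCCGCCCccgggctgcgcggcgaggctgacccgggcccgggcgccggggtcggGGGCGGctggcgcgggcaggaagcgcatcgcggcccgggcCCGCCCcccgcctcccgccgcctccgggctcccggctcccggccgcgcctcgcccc
The ROBO4 window held 1 AGATAA and 1 GGGCGG, the ROBO3 window 1 GGGCGG, the PLXND1 window 9 GGGCGG, some of which overlap, and the ROBO1 window none of the 4. Over 35116 RefSeq promoter windows of this length, 9.2% held AGATAA, 14.5% CCGGAA, 11.0% TGTGGT and 42.6% GGGCGG. Of the 37 guidance genes with a window, AGATAA stood in 3 (ROBO4, SEMA3E and SEMA5B), CCGGAA in 2, TGTGGT in 3 and GGGCGG in 24. These matches are letters in a window and say nothing of binding. By the GENCODE coordinates, the ROBO4 window lies inside the gene body. Those of ROBO3 and PLXND1 span the gene's start, and that of ROBO1 lies before it. G and C made up 54.8% of the ROBO4 window, 64.4% for ROBO3, 48.0% for ROBO1 and 88.8% for PLXND1.

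The SLIT ligands were low in both fractions. SLIT2 had 1.70 and 1.03 TPM in GFP-positive against 7.60 and 2.96 TPM in GFP-negative libraries. SLIT3 had 2.26 and 3.05 TPM against 11.36 and 5.80 TPM. For both genes, which were named after their values were seen, GFP-negative replicate 1 was the highest library and neither fraction reached the other (log2 differences -1.32 ± 0.58 and -1.34 ± 0.50, SE; limma adjusted p = 0.387 and 0.319). Without that library they were -0.76 and -0.90. SLIT1 did not reach the level filter and was listed at 0 in 1 library of each fraction. No netrin reached it either: the highest netrin values were 1.43 TPM for NTN1 and 2.51 TPM for NTN4, both in GFP-positive replicate 2, and NTN4 was listed at 0 in the other 3 libraries.

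UNC5B was the main UNC5 receptor, at 25.4 and 19.1 TPM in GFP-positive and 45.5 and 34.3 TPM in GFP-negative libraries. All GFP-positive values lay below all GFP-negative values, and the GFP-negative mean was 1.79-fold that of GFP-positive cells (-0.81 ± 0.28 on the log2 scale, SE; limma adjusted p = 0.280). UNC5C, another netrin receptor, was at 3.33 to 8.30 TPM with overlap. UNC5A and UNC5D stayed below 1 TPM in all 4 libraries. An antisense gene, UNC5B-AS1, overlaps UNC5B, and 29 of the 44 gene bodies overlap some other annotated gene. That count takes any overlap of gene bodies, down to 11 bases for PLXNA3 with LAGE3, without regard to exons. Whether counting used strand is not given in the sources used here. Whether reads of such pairs were mixed is therefore not known.

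The co-receptors, related ligands and intracellular effectors of these systems were read from 3 lists of 80 genes, of which 79 were in the files and 73 were tested. Of these, 0 rose and 2 fell, against the background of 0.447% of all genes, and the median log2 fold change was -0.15 over 20 co-receptors and other receptors and -0.11 over 49 effectors. FLT4, the lymphatic VEGF receptor that neuropilin-2 assists, had 104 and 111 TPM in GFP-positive against 347 and 340 TPM in GFP-negative libraries. Both fractions were tight, and FLT4 fell (-1.67 ± 0.14 on the log2 scale, SE; limma adjusted p = 0.0316), a call that is lost without GFP-negative replicate 1 (adjusted p = 0.0641). CRMP1, a collapsin response mediator that carries the semaphorin 3A signal to the cytoskeleton, had 64.5 and 67.9 TPM against 156 and 153 TPM. It fell as well (-1.21 ± 0.15 on the log2 scale, SE; limma adjusted p = 0.0495), but not in any fit with a library left out (adjusted p = 0.0785 and 0.0763 without GFP-positive replicates 1 and 2, 0.172 and 0.121 without GFP-negative replicates 1 and 2). Neither call held with a pseudocount of 0.1, without the level filter or without the variance trend. DPYSL3, of the same family as CRMP1, had 18.6 and 25.9 TPM against 46.1 and 51.2 TPM, which missed the threshold (-1.11 ± 0.26 on the log2 scale, SE; limma adjusted p = 0.150). RGMB, a ligand of neogenin, had 2.92 and 3.23 TPM against 8.36 and 13.0 TPM (limma adjusted p = 0.223), and RND2 stood the other way at 3.80 and 5.08 TPM against 1.33 and 1.64 TPM (limma adjusted p = 0.375).

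None of the 5 most abundant genes of these lists passed. NRP2, the co-receptor of SEMA3F and SEMA3G, had 801 and 851 TPM in GFP-positive and 894 and 804 TPM in GFP-negative libraries. Its libraries overlapped (-0.039 ± 0.12 on the log2 scale, SE; limma adjusted p = 0.933). Its level was above that of every guidance gene but PLXND1 in all 4 libraries. ITGB1, the beta-1 integrin that SEMA7A engages, had 1010 and 1083 TPM against 914 and 1182 TPM, also with overlap. KDR, the main VEGF receptor, had 659 and 614 TPM against 1073 and 976 TPM, and missed the threshold (limma adjusted p = 0.0878). CFL1, the actin-severing protein cofilin, had 2020 and 1918 TPM against 2176 and 2329 TPM, and RHOA, a GTPase of the cytoskeleton, had 835 and 763 TPM against 879 and 812 TPM. NRP1, the co-receptor of SEMA3A, was less abundant and was named after its values were seen. It had 85.4 and 95.6 TPM against 129 and 143 TPM, without overlap (log2 fold change -0.58 ± 0.16, SE; limma adjusted p = 0.202).

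**Figure D4:**
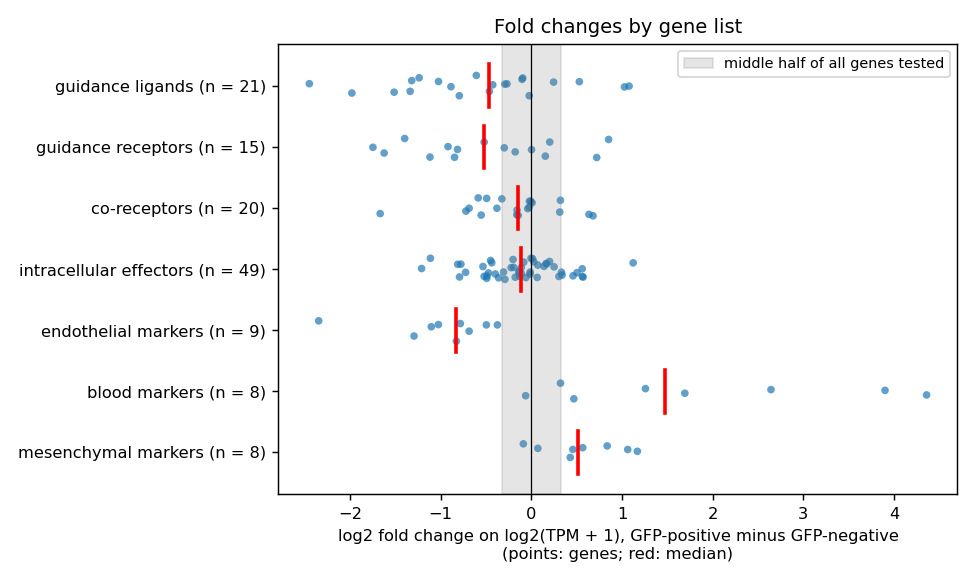
Fitted log2 fold change, GFP-positive minus GFP-negative, on log2(TPM + 1) for each tested gene (points) of 7 lists, with the list median in red. The grey band holds the middle of all genes tested, from the lower to the upper quartile (-0.32 to 0.33). Medians of guidance ligands (-0.46) and receptors (-0.52) lie below the band, that of endothelial markers is -0.83 and that of blood markers 1.48. The ligands include SEMA5B and SEMA6D, which reached the level filter only through the GFP-negative libraries.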

How the data were processed

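Each library had 1 deposited table of Ensembl identifiers, gene symbols and values. The authors deposited these values as TPM, judged from sums of 996324 to 997293 per table and from RSEM, which with Bowtie and the builds hg19 and mm10 is named, without version or role, in the submitters' processing notes. Annotation and strand setting were not given in these sources. All 44 identifiers matched GENCODE release 29 (GRCh38), the source of printed coordinates and overlaps.

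Genes that reached 1 TPM in 2 or more of the 4 libraries were fitted with limma 3.58.1 in R 4.3.3 on log2(TPM + 1) with a variance trend and without a block, and p-values were two-sided and adjusted over all genes. This was the fit planned for TPM, and a count test had been planned only for counts. The fit was run on simulated data drawn from limma's own fitted model of the spread, with changes planted only in genes of higher level. That run does not bear on low genes or on the p-values from these libraries. Guidance genes with a mean of at least 10 TPM in either fraction, any that passed, and the 6 with the largest absolute fold change are given in full. From the pathway lists, genes that passed, the 5 most abundant and the 5 with the largest absolute fold change are named. Members, lists and tests were chosen with earlier results of these data known. The 11 alternatives were another pseudocount, 2 filters, 2 scalings, no trend, a replicate block and each library left out.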

Additional observations from a re-analysis of the deposited data

How the results depend on the processing

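The number of genes called over all genes was 69 and depended on the setting. With a pseudocount of 0.1, without a filter or without a variance trend, limma called 0 genes (2101, 2230 and 2072 at an unadjusted p under 0.05), and with a mean above 5 TPM it called 164. With a library left out it called 18 to 65 genes, the fewest without GFP-negative replicate 1. The causes were not tested. The number of guidance genes called was 0 under every setting that kept all 4 libraries except the replicate block, and 0 to 1 with a library left out. The median log2 fold change of the tested guidance genes ran from -0.57 to -0.42 over all 11 alternatives. SEMA5B and SEMA6D were included wherever they reached the filter.

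With the replicate number as a block, limma called 596 of the 15425 genes tested, 228 higher and 368 lower in GFP-positive cells. Among them were 5 of the 36 tested guidance genes, all lower in GFP-positive cells: PLXND1 (adjusted p = 0.00436), ROBO1 (0.00997), ROBO4 (0.0400), SEMA3G (0.0448) and SEMA4C (0.0483). Of the pathway genes named, the block added KDR (adjusted p = 0.00708). The libraries share only a number: the deviations of same-numbered libraries correlated at 0.07 over genes, and with 1 independent deviation per fraction the pairing cannot be settled.

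Of the 36 tested guidance genes, 27 kept their sign under every alternative in which they could be fitted. Among the 27 are SEMA5B and SEMA6D, which reached the filter only through the GFP-negative libraries, so their sign was fixed. The other 9 changed sign at least once, none of them called. ROBO3 had -0.038 with upper quartile and -0.020 with median of ratios scaling. With each library left out in turn, the lowest and highest log2 fold changes were -0.23 and 0.23 for ROBO3, -0.44 and 0.24 for SEMA7A, -1.20 and 0.35 for SEMA6B, -0.026 and 0.52 for SEMA4G, -0.40 and 0.71 for UNC5C, -0.79 and 0.25 for SEMA4A and -0.16 and 0.57 for PLXNB3. SEMA3C and SEMA3D reached the level filter in only 2 of these fits: SEMA3C had 0.85 with GFP-positive replicate 2 left out, SEMA3D had 0.53 with GFP-positive replicate 1 left out, and they had -0.76 and -0.60 with GFP-negative replicate 2 left out. Of the pathway genes, ITGB1 had -0.033 with upper quartile and -0.015 with median of ratios scaling and -0.18 to 0.19 with a library left out, and NRP2 had -0.11 to 0.037 with a library left out. Values of a few TPM rest on an unknown number of reads.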

Other observations

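For 3 ligand and receptor pairs, chosen after their values were seen, the receptor's level was far above the ligand's. PLXND1 stood at 1069 to 2227 TPM beside SEMA3E at 0.94 to 2.73 TPM, and UNC5B stood at 19.1 to 45.5 TPM beside NTN1 at 0.36 to 1.43 TPM. ROBO1 stood at 21.8 to 118 TPM beside SLIT2 at 1.03 to 7.60 TPM. Other pairs were closer in level or had more of the ligand: PLXNA2 stood at 34.4 to 87.3 TPM beside SEMA6A at 25.2 to 53.9 TPM, and PLXNB2 stood at 83.9 to 117 TPM beside SEMA4C at 151 to 269 TPM. Ligands made by other cells of the cultures were not measured in these sorted fractions.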
